A study of Mus musculus with 12 samples.

Results

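The genes described here are 37 mouse genes of glycolysis and of the response to low oxygen, listed by symbol and found through the Ensembl identifiers of a count table with 55414 identifiers. They comprise 2 carriers of glucose and lactate, 16 glycolytic enzymes, 4 regulators of glycolytic flux and glycogen, 3 genes of oxygen sensing and 12 other targets of the hypoxia response. A test was possible for 36 of them, among 14435 genes tested; Aldoc, the brain-type aldolase, had too few counts. The list was drawn up with results of the same libraries known, so that the calls below describe its members, are read against the share of all genes called, and do not test the choice. Which values led to the choice is not recorded, and the list carries no threshold.

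The libraries came from cultures of 3T3-L1, mouse fibroblasts committed to the fat lineage that become adipocytes under a hormone cocktail; the labels class them as mesenchymal stem cells. The cells carried FHL2-GFP (labelled FHL2 overexpression) or CTRL-GFP (labelled control), and polyadenylated RNA was sequenced at day 2 of induction and at day 0, with 3 libraries in each of the 4 groups. Day 0 is the post-confluent culture, and until day 2 cells of both lines received 170 nM insulin, 1 µM dexamethasone and 0.5 mM isobutylmethylxanthine in serum. FHL2, built of LIM domains, binds transcription factors as a cofactor, and the study asked how its overexpression alters early adipogenesis. The labels do not say how the constructs were delivered, what promoter drives them, whether each line is 1 clone, or whether the 3 libraries of a group came from separate cultures, so that p-values measure the spread between these libraries, which may be technical.

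Glycolysis splits glucose into pyruvate in a fixed chain of enzymes, and lactate dehydrogenase reduces pyruvate to lactate, which leaves the cell through monocarboxylate carriers. Many of these enzymes, the glucose carrier GLUT1 and a set of genes for pH control, blood vessel growth and collagen hydroxylation are targets of HIF, a transcription factor whose alpha subunit is marked for degradation by prolyl hydroxylases when oxygen is present. HIF binds a short DNA core, the hypoxia response element. Insulin and growth signals raise the same glycolytic genes in cells with normal oxygen, partly through MYC and through HIF itself, and adipogenic induction of 3T3-L1 cells includes a high dose of insulin.

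The core of the hypoxia response element was searched for in RefSeq promoter windows of 300 bases, 250 before to 50 after the transcription start, on build GRCm38.p6 and on both strands. The letters searched were ACGTG and GCGTG, and separately CACGTG, an E-box bound by MYC and related factors, which contains ACGTG on each strand. Windows were found for 36 of the 37 genes; Ndrg1 had none. ACGTG lay in at least 1 window of 26 of the 36 genes (72.2%), against 29.0% of the tested genes with a window and 21.8% of all 27025 genes. The list was made of genes of glycolysis and of the hypoxia response, many of them known targets of HIF. Its share of the core is therefore no test of HIF in these libraries. ACGTG or GCGTG lay in 32 of the 36 (88.9%), against 67.4% of the tested genes and 46.7% of all genes. CACGTG lay in 6 of the 36 (16.7%), against 11.6% of the tested genes and 8.09% of all genes. Genes can have several windows, 55 for the 36 members and 12700 for 9935 tested genes. Per window, ACGTG lay in 54.5% of members' windows, against 25.0% for tested genes. ACGTG or GCGTG lay in 80.0% against 61.4%, and CACGTG in 10.9% against 9.72%. Neither core was found for Eno2, Gpi1, Gys1 and Tpi1. The 250 bases before the start are shown for 5 members with a core and for Gys1, which had none and whose change between days lay within the range of theirs in control. Sequences run 5′ to 3′ along the gene, capitals mark ACGTG or GCGTG on either strand, and the windows are chrX:106186850-106187099 (plus strand), chr7:46845554-46845803 (plus strand, the first of 2 windows), chr12:54203875-54204124 (minus strand), chr4:43506776-43507025 (plus strand), chr11:54100674-54100923 (plus strand) and chr7:45434589-45434838 (plus strand).
Pgk1: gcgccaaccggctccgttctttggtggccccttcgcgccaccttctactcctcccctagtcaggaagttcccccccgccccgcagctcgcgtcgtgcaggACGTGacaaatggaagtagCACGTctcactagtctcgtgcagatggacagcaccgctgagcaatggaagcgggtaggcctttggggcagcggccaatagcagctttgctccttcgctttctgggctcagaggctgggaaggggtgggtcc
Ldha: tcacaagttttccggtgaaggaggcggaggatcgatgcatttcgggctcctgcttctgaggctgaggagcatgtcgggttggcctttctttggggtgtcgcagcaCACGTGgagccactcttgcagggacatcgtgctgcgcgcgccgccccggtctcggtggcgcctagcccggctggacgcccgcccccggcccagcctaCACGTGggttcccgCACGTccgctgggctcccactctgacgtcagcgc
Egln3: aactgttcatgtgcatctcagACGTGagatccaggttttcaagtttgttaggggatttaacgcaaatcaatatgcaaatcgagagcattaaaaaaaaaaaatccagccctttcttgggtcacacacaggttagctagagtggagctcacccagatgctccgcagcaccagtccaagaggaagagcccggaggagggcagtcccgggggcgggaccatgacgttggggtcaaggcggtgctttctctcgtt
Car9: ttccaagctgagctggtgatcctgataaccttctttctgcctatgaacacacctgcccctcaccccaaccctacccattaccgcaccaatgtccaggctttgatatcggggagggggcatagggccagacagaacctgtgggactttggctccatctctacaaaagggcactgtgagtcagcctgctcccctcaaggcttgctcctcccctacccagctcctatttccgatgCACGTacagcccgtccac
P4ha2: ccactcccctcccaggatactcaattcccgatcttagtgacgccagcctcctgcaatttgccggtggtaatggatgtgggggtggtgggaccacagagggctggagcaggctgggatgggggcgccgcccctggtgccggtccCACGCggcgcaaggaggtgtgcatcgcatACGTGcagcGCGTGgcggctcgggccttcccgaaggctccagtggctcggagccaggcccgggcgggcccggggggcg
Gys1: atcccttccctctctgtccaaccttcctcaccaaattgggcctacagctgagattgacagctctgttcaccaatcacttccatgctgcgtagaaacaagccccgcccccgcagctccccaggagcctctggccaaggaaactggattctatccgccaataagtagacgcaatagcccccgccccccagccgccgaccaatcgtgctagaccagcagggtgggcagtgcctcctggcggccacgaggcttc

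The Ldha window held CACGTG 2 times, at bases -145 and -48 from the start, and a further core at -34. The Car9 window held its single core at base -18, close to the start, and that of Egln3 at -229, at the far end. A match of 5 letters is a description of the window and no binding site by itself. The 25 tested members with ACGTG had a median log2 fold change, day 2 over day 0, of 0.98 in FHL2 and 1.23 in control, and the 10 without it had 1.39 in FHL2 and 1.77 in control.

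Libraries held 10047708 to 21872139 counts. Day 2 libraries varied more between replicates than day 0 libraries, with a biological coefficient of variation of 0.39 at day 2 and 0.12 at day 0. The check on the construct did not separate the lines. Reads of mouse Fhl2 averaged 17.1 ± 6.49 CPM (counts scaled to library size) in libraries labelled FHL2-GFP at day 2, against 16.3 ± 4.03 CPM in libraries labelled CTRL-GFP at day 2, and 62.7 ± 4.35 against 61.2 ± 2.40 CPM at day 0 (SD, n = 3 each), so that every direction between the lines rests on the labels alone. The labels do not give the species or sequence of the construct, and reads of a construct of another species would not be counted for the mouse gene. Preadipocyte markers were present throughout, and those of macrophages, endothelium and epithelium were near 0, with summed levels of at most 2.95 CPM in any library. Of 4 skeletal muscle markers 1 had counts, with at most 5.13 CPM. The preadipocyte markers summed to 9847 to 10322 CPM in FHL2 and 9885 to 11713 CPM in control at day 2, and to 12798 to 13082 CPM in FHL2 and 12631 to 13823 CPM in control at day 0. The 6 adipocyte markers (Plin1, Cidec, Adipoq, Fabp4, Pparg, Cebpa) summed to 57.3 to 67.5 CPM in the FHL2 libraries of day 2, against 94.6 to 140.4 CPM in the control libraries of day 2, and to 15.5 to 18.2 CPM in all libraries of day 0. Plin1, Cidec and Adipoq had no count at day 0. The adipocyte sum moved between lines and days with the genes below and the preadipocyte sum between days, and their part in the differences was not tested. In RNA of a whole culture, fewer cells that express a gene and less RNA per cell cannot be told apart.

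The most frequent order of group means, highest to lowest, was control at day 2, FHL2 at day 2, control at day 0, FHL2 at day 0. This order was found for 23 of the 36 tested genes (63.9%), and for 10.2% of all tested genes. Among the 23 were Slc2a1, 13 of the 15 tested glycolytic enzymes, Gys1, both prolyl hydroxylase genes, Car9, Higd1a, Ankrd37, Ndrg1, P4ha2 and Mif. Within control, library 2 held the highest value of 27 of 36 members at day 2, where it held that of 33.3% of all tested genes, and of 23 of 36 members at day 0, where it held that of 27.8%.

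**Figure D1:**
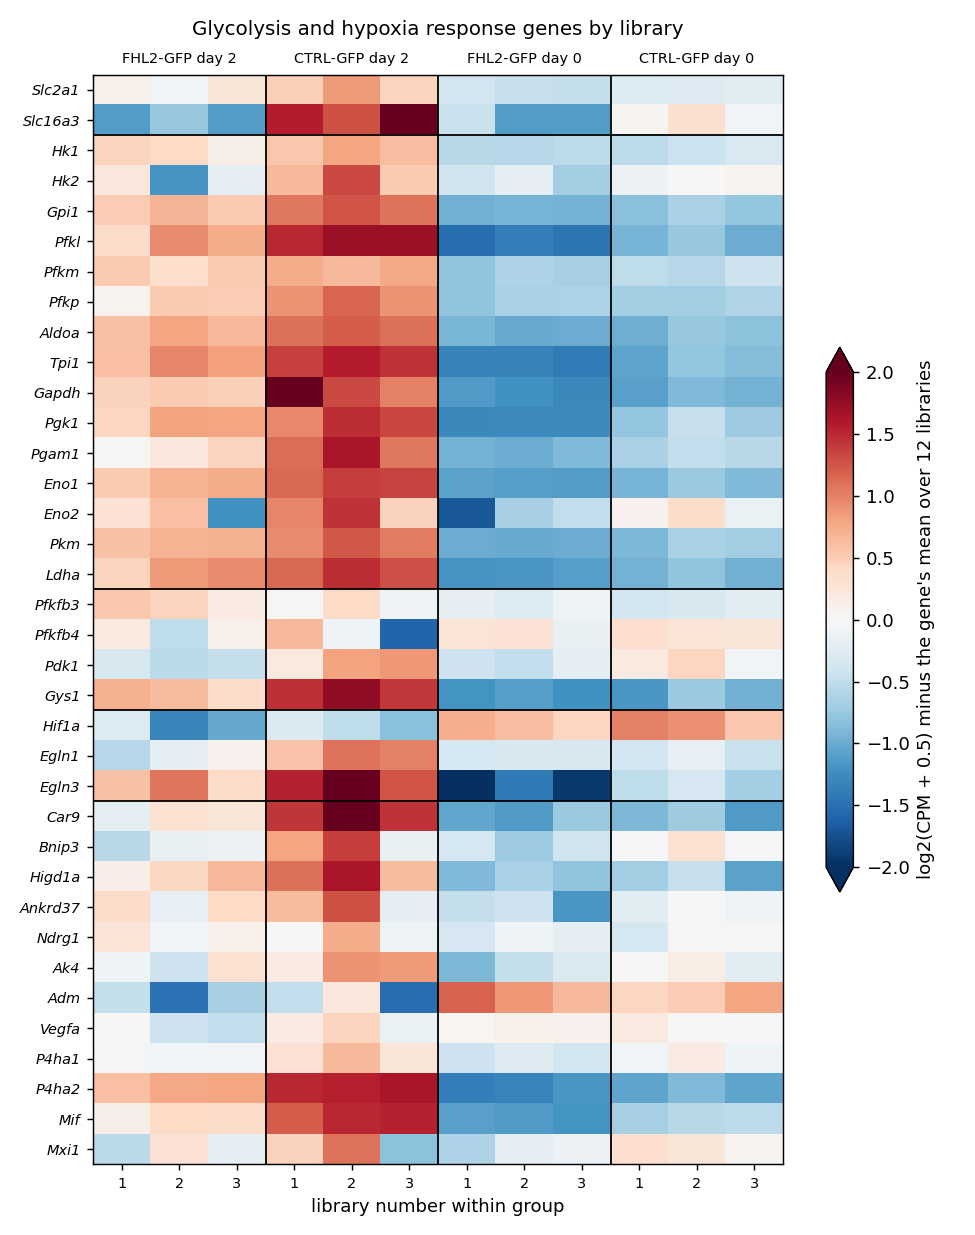
Level of the 36 tested genes in each of the 12 libraries as log2(CPM + 0.5) minus the gene's mean over all libraries (colour, from -2 to 2), with rows grouped by role and columns by group. Most rows are highest in the 3 control libraries of day 2, lower in the FHL2 libraries of day 2 and lowest at day 0, and Hif1a and Adm run the other way between days.

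Across all genes, differences between days followed the GC content of the transcript. In FHL2 cells the median log2 fold change, day 2 over day 0, was -1.63 in the fifth of genes with the lowest GC content and 0.69 in the fifth with the highest, and in control cells -1.79 and 0.73. The 37 genes had a GC content of 41.3% to 63.5%, with a median of 52.1%. Values after a correction for GC content are therefore given for each member whose call it changed, and for gene lists whose counts between days it changed. It moved the median of all genes to -0.02 in FHL2 and -0.03 in control, against -0.11 in FHL2 and -0.14 in control without it. The comparison between lines was nearly free of this trend, with medians of -0.02 to 0.04 over the 5 classes of GC content at day 2.

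From day 0 to day 2 most of the 36 genes increased in both lines. Day 2 libraries held counts for 12689 to 16131 genes and day 0 libraries for 17977 to 18811, and the part of this gap in the differences between days was not tested. In FHL2 cells 22 of the 36 rose, where 25.8% of all tested genes rose, and 2 fell, where 30.2% did. In control cells 24 rose, where 26.3% of all tested genes rose, and 1 fell, where 30.8% did. The median log2 fold change was 1.13 in FHL2 and 1.44 in control. All day 2 libraries were above all day 0 libraries for 24 of the 36 in FHL2, where 29.2% of all tested genes were, and for 27 of the 36 in control, where 29.8% were. After the GC correction 19 rose and 3 fell in FHL2, where 39.9% of all genes were called in either direction, with a median of 0.78, and 24 rose and 1 fell in control, where 40% were called, with a median of 1.14.

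**Figure D2:**
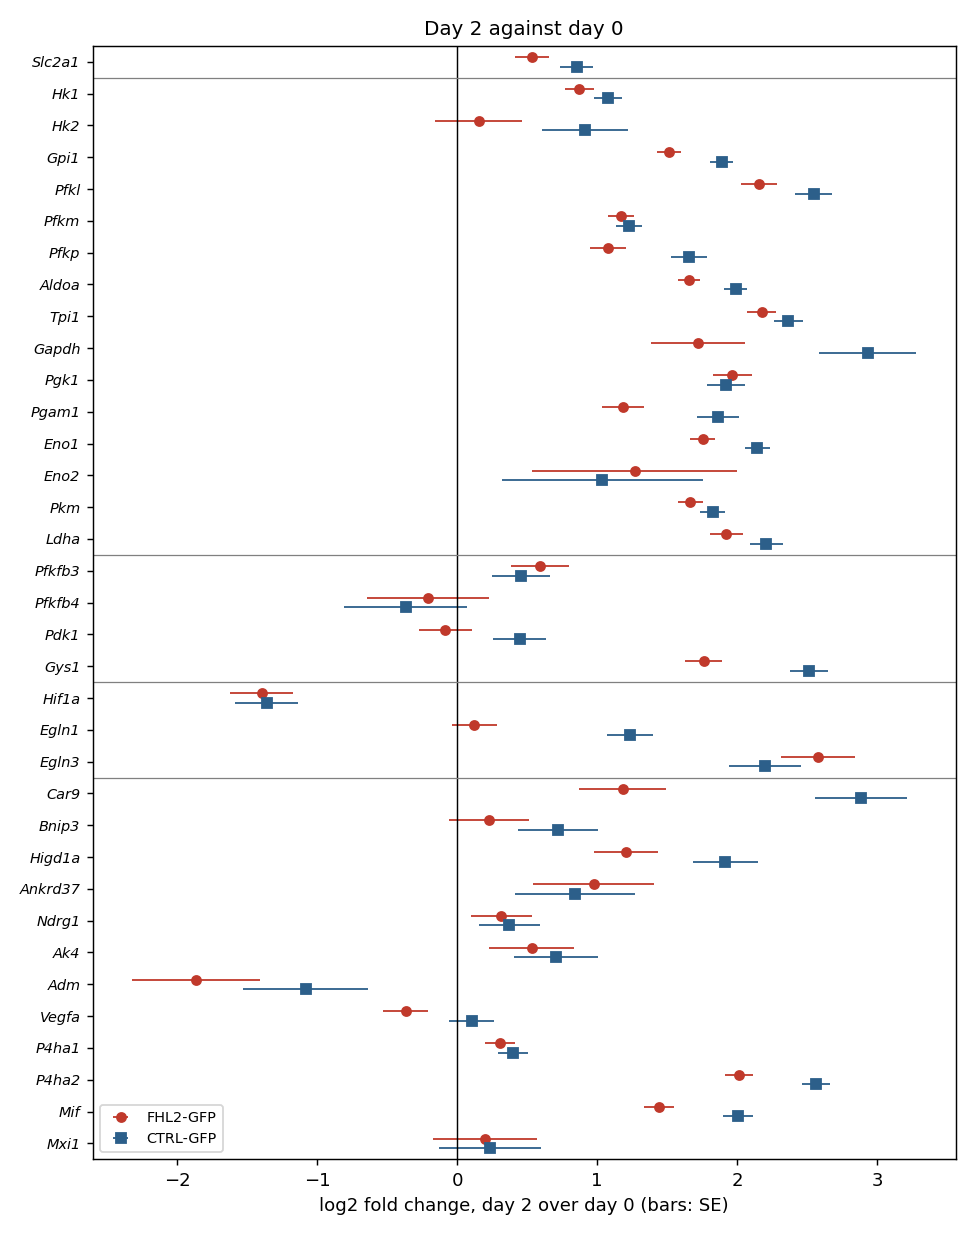
Log2 fold change, day 2 over day 0, of 35 tested genes in FHL2-GFP (red circles) and CTRL-GFP (blue squares), with bars for the SE and rows grouped by role; Slc16a3, with few counts, is left out. Glycolytic enzymes lie right of 0 in both lines, mostly farther in control, while Hif1a, Adm and Pfkfb4 lie left of 0 in both lines and Vegfa and Pdk1 in FHL2.

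Glucose enters these cells at rest through GLUT1, encoded by Slc2a1. Slc2a1 had 118, 105 and 129.7 CPM in the FHL2 libraries of day 2, against 153, 198 and 149.7 CPM in the control libraries of day 2. At day 0 Slc2a1 had 85.1, 79.6 and 79.2 CPM in FHL2, against 90.4, 92.0 and 95.0 CPM in control. The lines did not overlap at either day, and within each line all day 2 libraries were above all day 0 libraries. Slc2a1 rose by a log2 fold change of 0.53 (SE 0.12, adjusted p = 0.0015) in FHL2 and 0.85 (SE 0.12, adjusted p = 2.72e-05) in control, and was lower in FHL2 than in control at day 2 (-0.50, SE 0.12, adjusted p = 0.043). After the GC correction the FHL2 rise was no longer called (adjusted p = 0.86). The difference between lines at day 2 was not called without FHL2 library 1 or 2, or without control library 1 or 2 (adjusted p 0.0749 to 0.139).

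Slc16a3 encodes MCT4, the lactate exporter of glycolytic cells, and was rare. Slc16a3 had 0, 0.142 and 0 CPM in the FHL2 libraries of day 2, against 2.74, 2.13 and 5.73 CPM in the control libraries of day 2. At day 0 Slc16a3 had 0.296, 0 and 0 CPM in FHL2, against 0.633, 0.863 and 0.552 CPM in control. The 3 FHL2 libraries of day 2 together held 2 counts and the 3 control libraries 121, and at day 0 they held 7 and 39. The lines did not overlap at either day. The difference at day 2 was not called (adjusted p = 0.0576), and was called after the GC correction (adjusted p = 0.0485).

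Most glycolytic enzymes rose between days, each tested by itself. Of the 15 tested, 13 rose in FHL2, where 25.8% of all tested genes rose, and 14 in control, where 26.3% did. None fell in either line. After the GC correction 12 rose in FHL2 and 13 in control, and none fell. Per kilobase of exon, Pkm was the highest at 699 CPM per kb in FHL2 and 929.5 CPM per kb in control at day 2, and Aldoa (585 in FHL2, 804 in control), Tpi1 (538 and 846), Ldha (413 and 600.2) and Pgk1 (405 and 607) came next, in an order that differed between the lines. Hk2, Eno2 and Aldoc were under 7 CPM per kb in every group. Leaving aside Hk2 and Gapdh, described below, called rises in control ran from a log2 fold change of 1.08 (SE 0.10, adjusted p = 7.04e-07) for Hk1, the housekeeping hexokinase, whose rise in FHL2 was not called after the GC correction (adjusted p = 0.0828), to 2.55 (SE 0.13, adjusted p = 2.52e-09) for Pfkl, the liver-type phosphofructokinase of the committed step.

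The largest rise of an enzyme in FHL2 cells was that of Tpi1, triosephosphate isomerase, which interconverts the triose products of aldolase. Tpi1 had 1284, 1668 and 1489 CPM in the FHL2 libraries of day 2, against 2186, 2511 and 2293 CPM in the control libraries of day 2. At day 0 Tpi1 had 333, 333 and 318 CPM in FHL2, against 404, 492 and 461 CPM in control. The 4 groups did not overlap. It rose 4.51-fold in FHL2 (log2 2.17, SE 0.10, adjusted p = 1.55e-09) and 5.15-fold in control (2.36, SE 0.10, adjusted p = 6.07e-10).

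In control cells the largest fitted rise was that of Gapdh, which makes the first high-energy phosphate of the pathway. Gapdh had 56.6, 59.2 and 57.2 CPM in the FHL2 libraries of day 2, against 286, 103 and 82.7 CPM in the control libraries of day 2. At day 0 Gapdh had 18.3, 17.5 and 16.6 CPM in FHL2, against 19.0, 21.9 and 21.0 CPM in control. Control library 1 of day 2 stood far above the other two. The log2 fold change between days was 1.72 (SE 0.34, adjusted p = 0.00057) in FHL2 and 2.93 (SE 0.35, adjusted p = 6.28e-06) in control. Without control library 1 of day 2 the control value was 2.19, still called, so that its place as the largest rests on that library. Without control library 1 of day 2 the difference between lines at day 2 was -0.68 (adjusted p = 0.0501), against -1.45 (SE 0.33, adjusted p = 0.0379) with it, and it was also not called without any 1 of the FHL2 libraries of day 2 (adjusted p 0.0692 to 0.0958). Gapdh totalled 11137 counts over 12 libraries, against 200056 for Tpi1. The mouse genome holds many near-identical copies of Gapdh, among which reads can be split or discarded, so that its level is uncertain.

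Phosphoglycerate kinase, encoded by Pgk1, and lactate dehydrogenase A, encoded by Ldha, are classical HIF targets, with the promoter cores shown above. Pgk1 had 760.3, 987 and 979 CPM in the FHL2 libraries of day 2, against 1094, 1567 and 1423 CPM in the control libraries of day 2. At day 0 Pgk1 had 232, 232 and 234 CPM in FHL2, against 329.8, 411 and 340.2 CPM in control. The lines did not overlap at either day, and its rise was alike in size, 1.97 (SE 0.14, adjusted p = 4.95e-08) in FHL2 and 1.92 (SE 0.14, adjusted p = 5.18e-08) in control. Ldha had 1097, 1455 and 1552 CPM in the FHL2 libraries of day 2, against 1782, 2223 and 1955 CPM in the control libraries of day 2. At day 0 Ldha had 353, 358 and 372 CPM in FHL2, against 417, 459 and 414 CPM in control. Ldha too was lower in every FHL2 library than in any control library of the same day, and rose by 1.92 (SE 0.12, adjusted p = 1.72e-08) in FHL2 and 2.21 (SE 0.12, adjusted p = 4.76e-09) in control.

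Hexokinase 2, encoded by Hk2, is the insulin-responsive and HIF-responsive form. Hk2 had 24.6, 8.93 and 18.3 CPM in the FHL2 libraries of day 2, against 33.1, 52.9 and 30.2 CPM in the control libraries of day 2. At day 0 Hk2 had 15.7, 18.2 and 12.6 CPM in FHL2, against 19.1, 20.9 and 21.7 CPM in control. The FHL2 libraries of the 2 days overlapped, those of control did not. Hk2 rose in control (0.91, SE 0.31, adjusted p = 0.021), and its change in FHL2 was 0.16 (SE 0.31, adjusted p = 0.698). The control rise was not called after the GC correction (adjusted p = 0.127), nor without control library 1 or 2 of day 0 or library 2 of day 2 (adjusted p 0.0554 to 0.111). Eno2, the neuronal enolase, was not called in either line and had at most 6.47 CPM in any library. Aldoc had at most 0.432 CPM in 11 libraries and 1.91 CPM in FHL2 library 2 of day 2.

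**Figure D3:**
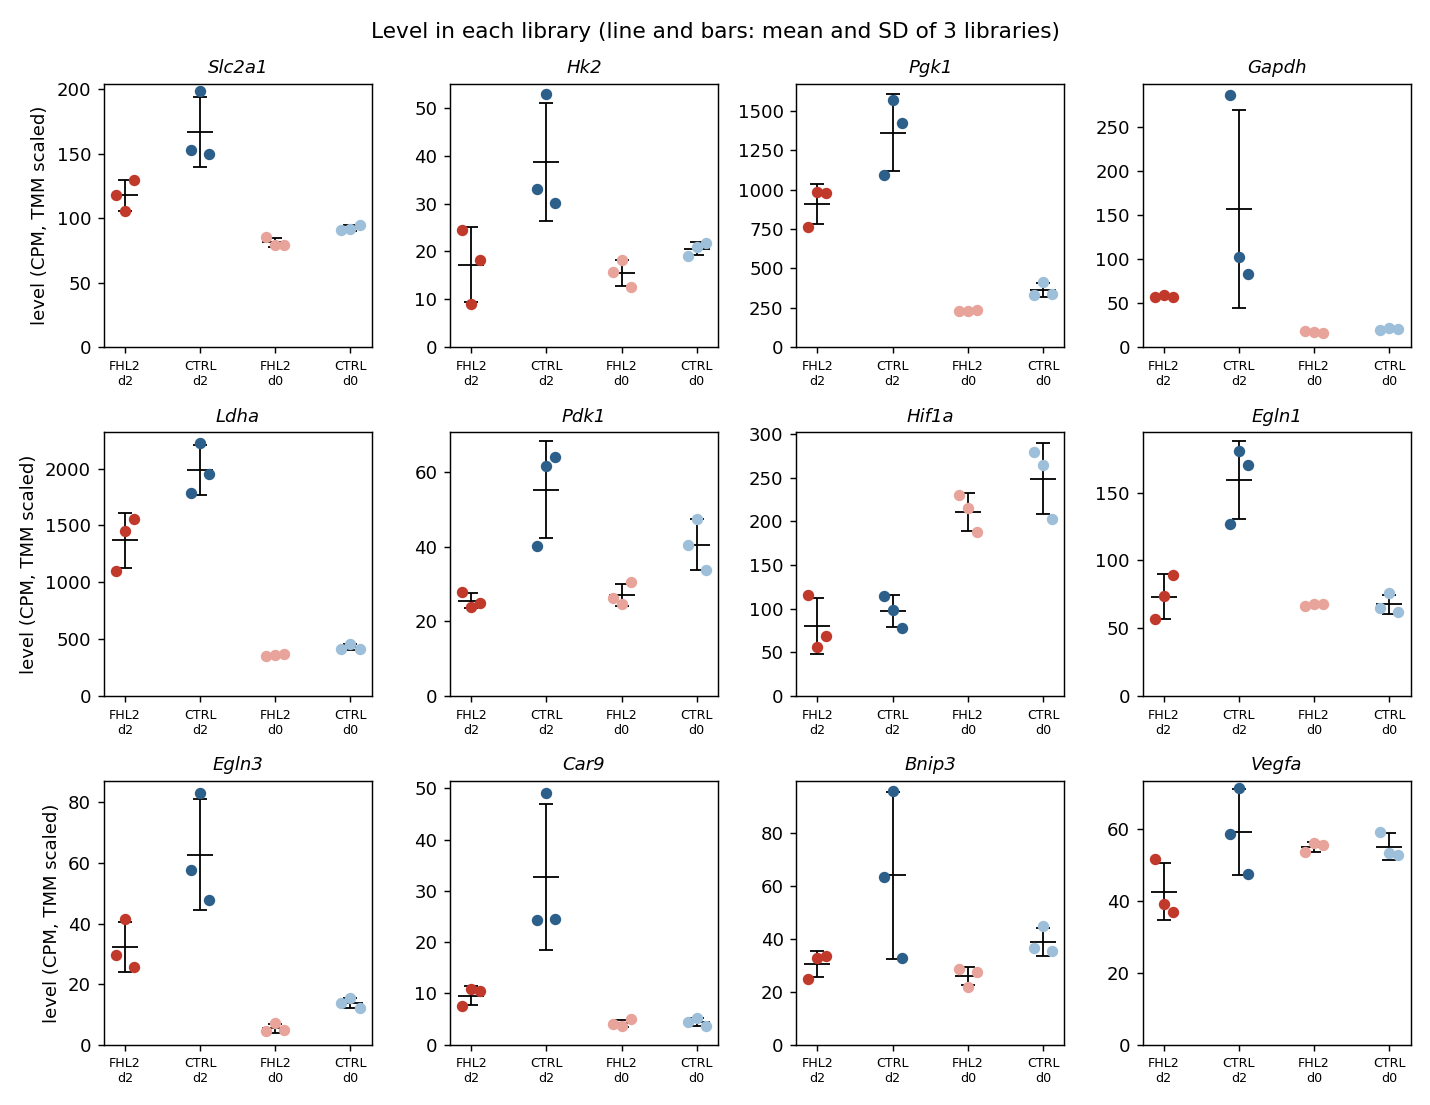
Level in CPM of 12 genes in each library (dots), with the mean and SD of each group of 3 (black), for FHL2-GFP and CTRL-GFP at day 2 and at day 0. Ldha, Pgk1, Egln3 and Car9 were highest in control at day 2, Hif1a was lower at day 2 than at day 0 in both lines, and single control libraries stand apart for Gapdh (library 1) and for Hk2, Car9 and Bnip3 (library 2).

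Between the lines, the glycolytic enzymes were lower in cells labelled FHL2-GFP. At day 2, 11 of the 15 were called lower, none was called higher and all 15 had a log2 fold change under 0, with 14 in which the libraries of the lines did not overlap. The 11 were Gpi1, Pfkl, Pfkp, Aldoa, Tpi1, Gapdh, Pgk1, Pgam1, Eno1, Pkm and Ldha. In a fit of only the groups compared, Pfkp, Aldoa, Gapdh, Pgk1, Pkm and Ldha were not called (adjusted p 0.0675 to 0.123), which left 5 of the 11. Over all 36 tested genes 19 were called lower and none higher at day 2, where 2.07% of all tested genes were called, 1.35% lower and 0.72% higher. The fit of only the groups compared called 10 of the 36, with Slc2a1, Pdk1 and P4ha1 also lost. Over all genes that fit called 39 of 12819, of which 31 were lower, against 299 of 14435 in the main fit. After the GC correction 22 were called lower and none higher, where 2.63% of all tested genes were called. The median log2 fold change of the 36 was -0.63, against 0.01 over all tested genes, and 24 of the 36 were lower without overlap, where 7.41% of all tested genes were.

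Apart from Gapdh, the greatest called difference of an enzyme was that of Pgam1, phosphoglycerate mutase. Pgam1 had 104, 121 and 139.8 CPM in the FHL2 libraries of day 2, against 224, 321 and 215 CPM in the control libraries of day 2, a log2 fold change of -1.06 (SE 0.15, adjusted p = 0.00338). Pfkl had 346, 508 and 440.5 CPM in the FHL2 libraries of day 2, against 751, 872 and 874 CPM in the control libraries of day 2 (-0.95, SE 0.12, adjusted p = 0.00212). Neither pair of groups overlapped. At day 0 Pgam1 had 53.3, 51.8 and 55.6 CPM in FHL2, against 65.5, 73.3 and 70.3 CPM in control. At day 0 Pfkl had 92.2, 102 and 95.4 CPM in FHL2, against 138, 157 and 133 CPM in control. The lines were apart then too. The smallest called difference was that of Pkm, pyruvate kinase, with 3304, 3573 and 3607 CPM in the FHL2 libraries of day 2, against 4223, 5182 and 4540.4 CPM in the control libraries of day 2 (-0.41, SE 0.09, adjusted p = 0.0264). At day 0 Pkm had 1102, 1095 and 1110.3 CPM in FHL2, against 1175, 1399.6 and 1365 CPM in control. Its lines did not overlap at either day.

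Gpi1 is the isomerase that follows hexokinase. Gpi1 had 796, 894 and 807 CPM in the FHL2 libraries of day 2, against 1163, 1339.6 and 1194 CPM in the control libraries of day 2. At day 0 Gpi1 had 288, 294 and 293 CPM in FHL2, against 312, 358 and 327 CPM in control. The lines stood apart at both days, and the difference at day 2 was -0.57 (SE 0.08, adjusted p = 0.00412). Aldoa is the aldolase that splits the sugar. Aldoa had 1589, 1842 and 1679 CPM in the FHL2 libraries of day 2, against 2287, 2455 and 2281 CPM in the control libraries of day 2. At day 0 Aldoa had 561, 530.2 and 533 CPM in FHL2, against 541, 627 and 602 CPM in control. Its lines overlapped at day 0 and not at day 2, where the difference was -0.46 (SE 0.08, adjusted p = 0.0103).

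Eno1 is the main enolase. Eno1 had 991, 1122 and 1152 CPM in the FHL2 libraries of day 2, against 1528, 1795 and 1759 CPM in the control libraries of day 2. At day 0 Eno1 had 328, 322 and 318 CPM in FHL2, against 362, 414 and 373 CPM in control. The lines stood apart at both days (-0.64, SE 0.09, adjusted p = 0.00269 at day 2). Pfkp is the platelet-type phosphofructokinase. Pfkp had 122, 168 and 166 CPM in the FHL2 libraries of day 2, against 219, 261 and 219 CPM in the control libraries of day 2. At day 0 Pfkp had 66.5, 74.5 and 75.0 CPM in FHL2, against 72.7, 71.8 and 77.1 CPM in control. Its lines overlapped at day 0 and not at day 2 (-0.62, SE 0.12, adjusted p = 0.0226). Tpi1 was lower by a log2 fold change of -0.65 (SE 0.10, adjusted p = 0.00529), Pgk1 of -0.58 (SE 0.13, adjusted p = 0.0379) and Ldha of -0.54 (SE 0.11, adjusted p = 0.0295). Hk1, Hk2, Pfkm and Eno2 were not called, with adjusted p-values of 0.0998, 0.0728, 0.164 and 0.457.

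Not all of these calls held without single libraries of day 2. Pfkp was not called without control library 1 or 2 (adjusted p 0.0593 and 0.0846), Ldha without FHL2 library 2 or control library 2 (0.0641 and 0.0965), Pkm without FHL2 library 1 or 2 or control library 2 (0.0699 to 0.0996), and Pgk1 without FHL2 library 1 or 2 or control library 2 or 3 (0.0625 to 0.107). Gpi1, Pfkl, Aldoa, Tpi1, Pgam1 and Eno1 were called in each of the 6 fits that left out a day 2 library, though Aldoa was not called in the fit of only the groups compared (adjusted p = 0.0675). A further fit left out together the 3 day 2 libraries with the fewest detected genes. These were FHL2 libraries 1 and 2 and control library 3, so that 1 FHL2 library of day 2 remained. In that fit the log2 fold change between lines at day 2 was -0.47 for Pgk1, -0.41 for Pkm and -0.39 for Ldha. Across the 36 tested genes, 13 were called lower without FHL2 library 2 and 13 without control library 2 of day 2, which had held the highest value of most members. Over all genes, 97 of 15026 were called lower without FHL2 library 2, and 124 of 15082 without control library 2.

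At day 0 no member was called, where 0.0485% of all tested genes were called in either direction and 0.0277% lower. In edgeR 14 of the 36 had an unadjusted p under 0.05, as did 600 of all 14435 tested genes. All but 2 of the 36 were under 0. DESeq2 called 5 of the members, all lower, and 88 of 14421 genes. The main fit shares its estimate of spread over both days. Day 0 libraries varied less, with a biological coefficient of variation of 0.12 against 0.39 at day 2. The part of this in the day 0 calls was not tested. The median log2 fold change was -0.25, against -0.02 over all tested genes, and 23 of the 36 were lower in FHL2 without overlap, where 11.1% of all tested genes were. The smallest adjusted p was 0.0922, for Mif, which was the 1 member called after the GC correction (adjusted p = 0.0291), where 0.0901% of all tested genes were called. The difference of the differences between the lines, day 2 minus day 0, was called for no member, where 0.00693% of all tested genes were called. Its median was -0.36 over the 36, against 0.02 over all tested genes. In edgeR 13 of the 36 had an unadjusted p under 0.05, as did 996 of all 14435 tested genes. DESeq2 called 3 members, and 66 of 14141 genes. After the GC correction no member was called either, where 0.0139% of all tested genes were. The lower level in FHL2 at day 2 alone therefore does not show that the lines differ more at day 2 than at day 0.

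**Figure D4:**
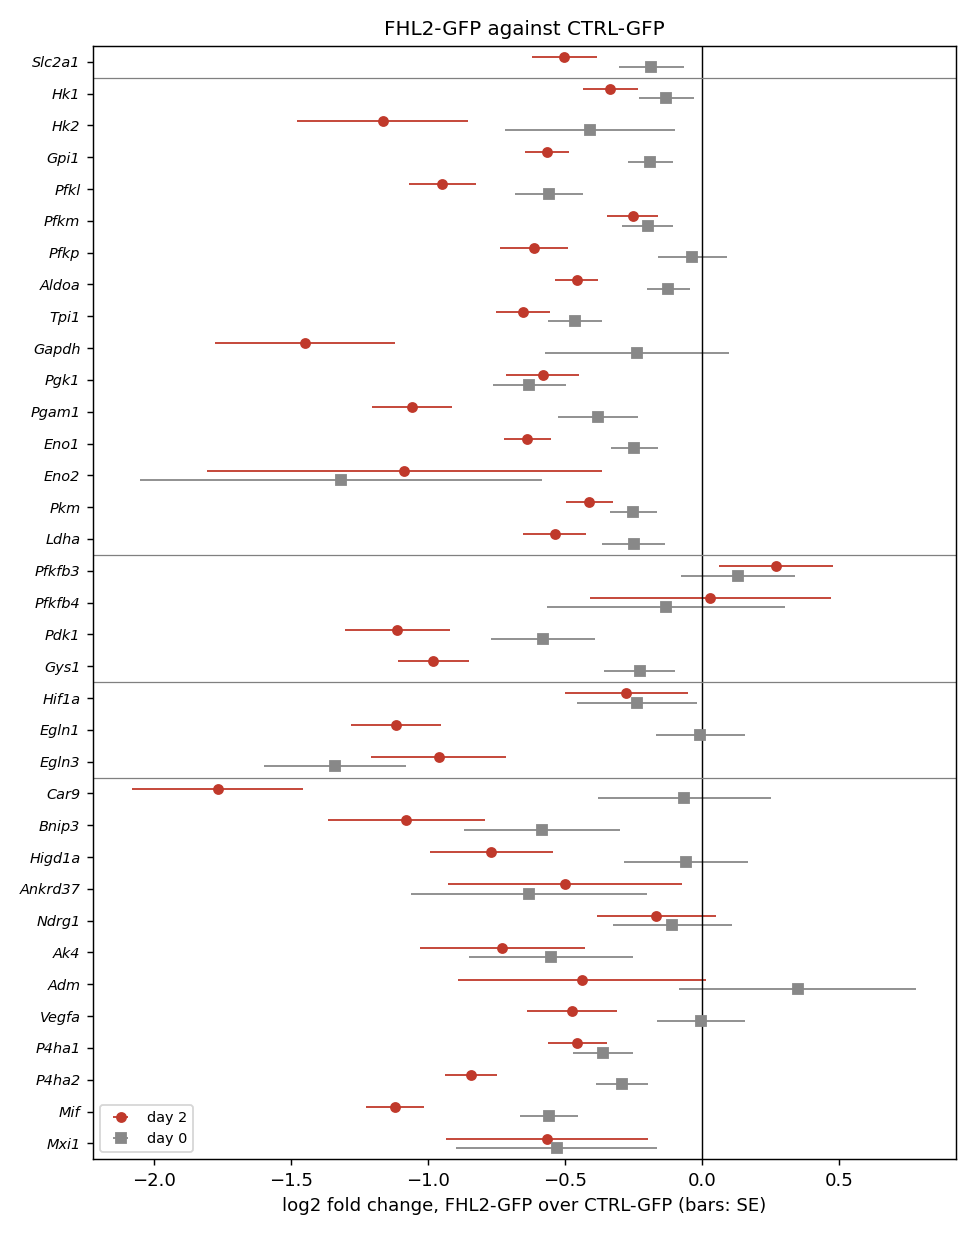
Log2 fold change, FHL2-GFP over CTRL-GFP, of 35 tested genes at day 2 (red circles) and at day 0 (grey squares), with bars for the SE and rows grouped by role; Slc16a3, with few counts, is left out. All day 2 values except those of Pfkfb3 and Pfkfb4 lie left of 0, and most day 0 values lie nearer to 0.

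Within enzyme families, shares of the level per kilobase, taken without the GC correction, shifted between days. Pfkl gave 48.3 ± 5.39% of the phosphofructokinase level in FHL2 at day 2, against 59.3 ± 2.14% in control at day 2, and 32.1 ± 0.816% in FHL2 at day 0, against 38.2 ± 3.18% in control at day 0 (SD, n = 3 each). The muscle form Pfkm gave 43.2 ± 6.04% in FHL2 and 32.5 ± 2.42% in control at day 2, and 56.0 ± 0.585% in FHL2 and 52.0 ± 2.83% in control at day 0. By this measure Pfkm led in all libraries of day 0 and Pfkl in all control libraries of day 2. The lead at day 0 rests on the division by joined exon length, 6675 bases for Pfkl and 3340 for Pfkm. In CPM without that division, Pfkl was above Pfkm at day 0 too (means 96.6 against 84.6 in FHL2, 142 against 97.1 in control). The length of the transcripts expressed in these cells was not tested. P4ha2 gave 31.7 ± 1.77% of the collagen prolyl 4-hydroxylase alpha subunits in FHL2 at day 2, against 38.1 ± 4.09% in control at day 2, and 12.5 ± 1.07% in FHL2 at day 0, against 12 ± 0.316% in control at day 0. Over the alternative fits the log2 rise of P4ha1 reached 0.99 in FHL2 and 1.12 in control. That of P4ha2 went down to 1.70 in FHL2 and 2.24 in control, so that the size of this shift depends on the processing. Hk1 gave 94.0 ± 2.57% of the hexokinase level in FHL2 at day 2, against 90 ± 2.09% in control at day 2, and Eno1 gave over 99% of the summed level of Eno1 and Eno2 in every library. Reads of Eno1b, a near-identical copy of Eno1, totalled 25913 counts, against 154371 for Eno1, so that the level of Eno1 depends on how reads of both were assigned.

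**Figure D5:**
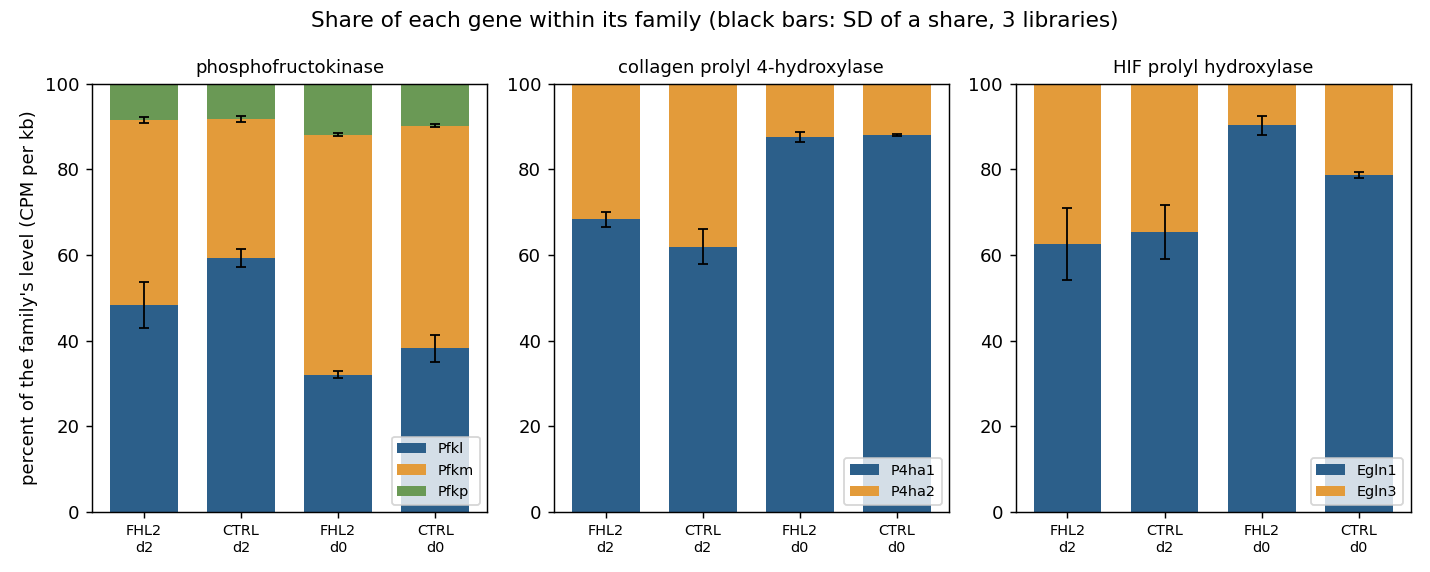
Mean share in percent of each gene in its family's level (CPM per kb), for phosphofructokinase, collagen prolyl 4-hydroxylase alpha subunits and HIF prolyl hydroxylases, in FHL2-GFP and CTRL-GFP at day 2 and at day 0; black bars are the SD of a share over 3 libraries. Pfkl, P4ha2 and Egln3 have larger shares at day 2 than at day 0 in both lines. Shares are without the GC correction.

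The regulators of flux did not move as a block. Pfkfb3 makes fructose 2,6-bisphosphate, the strongest activator of phosphofructokinase. Pfkfb3 had 23.2, 21.5 and 17.7 CPM in the FHL2 libraries of day 2, against 15.9, 20.9 and 14.8 CPM in the control libraries of day 2. At day 0 Pfkfb3 had 13.8, 12.9 and 14.6 CPM in FHL2, against 11.9, 12.5 and 13.4 CPM in control. The lines overlapped at both days, and the days did not within either line. Pfkfb3 rose in FHL2 (0.59, SE 0.21, adjusted p = 0.0247) and had 0.46 (SE 0.21, adjusted p = 0.0768) in control; the FHL2 rise was not called without any 1 of 5 FHL2 libraries, all but library 3 of day 2 (adjusted p 0.0520 to 0.0941), nor after the GC correction (0.0529). Pfkfb4, a second form of the same bifunctional enzyme, was not called in any comparison and averaged 8.84 ± 2.28 CPM in FHL2 and 8.60 ± 5.93 CPM in control at day 2.

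Pdk1 is the kinase that shuts pyruvate out of the citric acid cycle. Pdk1 had 27.8, 23.9 and 24.9 CPM in the FHL2 libraries of day 2, against 40.3, 61.6 and 64.0 CPM in the control libraries of day 2. At day 0 Pdk1 had 26.2, 24.7 and 30.4 CPM in FHL2, against 40.4, 47.4 and 33.8 CPM in control. All FHL2 libraries were below all control libraries at both days, and the days overlapped in both lines. The difference at day 2 was -1.11 (SE 0.19, adjusted p = 0.0109), and that at day 0 was -0.58 (SE 0.19, adjusted p = 0.672). Between days it was not called in FHL2 (-0.09, SE 0.19, adjusted p = 0.728) or control (0.45, SE 0.19, adjusted p = 0.057), though the control value was called after the GC correction (adjusted p = 0.000547).

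Gys1, glycogen synthase, had the greatest day change of the regulators. Gys1 had 236, 225 and 188 CPM in the FHL2 libraries of day 2, against 398, 498 and 386 CPM in the control libraries of day 2. At day 0 Gys1 had 62.7, 67.2 and 61.9 CPM in FHL2, against 64.4, 86.3 and 74.0 CPM in control. The lines overlapped at day 0 and stood apart at day 2, with a log2 fold change of -0.98 (SE 0.13, adjusted p = 0.00215). Gys1 rose 3.39-fold in FHL2 (1.76, SE 0.13, adjusted p = 1.01e-07) and 5.71-fold in control (2.51, SE 0.14, adjusted p = 4.38e-09), and the difference of these changes was -0.75 (SE 0.18, adjusted p = 0.351). Its neighbour on the other strand, Ruvbl2, shares 310 bases of exon, and the sources used here do not give the strand setting of the counting.

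Oxygen sensing genes went apart. Hif1a encodes the oxygen-labile subunit of HIF, which is mainly controlled at the protein level. Hif1a had 116, 56.0 and 68.4 CPM in the FHL2 libraries of day 2, against 114, 98.1 and 77.9 CPM in the control libraries of day 2. At day 0 Hif1a had 230.2, 215 and 188 CPM in FHL2, against 279.7, 264 and 203 CPM in control. The lines overlapped at both days, and all day 2 libraries were below all day 0 libraries. Hif1a fell by 1.40 (SE 0.22, adjusted p = 0.000104) in FHL2 and by 1.36 (SE 0.22, adjusted p = 0.000127) in control on the log2 scale. With a GC content of 41.3%, it was the member with the lowest, and after the GC correction the log2 fold change was 0.0096 (adjusted p = 0.972) in FHL2 and 0.20 (adjusted p = 0.383) in control, so that the direction of the change depends on the correction.

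Egln3 and Egln1 encode prolyl hydroxylases that mark HIF alpha subunits, and Egln3 is itself a HIF target. Egln3 had 29.6, 41.6 and 25.7 CPM in the FHL2 libraries of day 2, against 57.7, 83.0 and 47.7 CPM in the control libraries of day 2. At day 0 Egln3 had 4.44, 7.03 and 4.75 CPM in FHL2, against 13.7, 15.3 and 12 CPM in control. The 4 groups did not overlap. Egln3 rose 5.97-fold in FHL2 (2.58, SE 0.27, adjusted p = 1.73e-06), the largest rise of any member there, and 4.60-fold in control (2.2, SE 0.26, adjusted p = 5.38e-06). It had the lowest log2 fold change between lines at day 0 among members over 5 CPM (-1.34, SE 0.26, adjusted p = 0.0953), with -0.96 (SE 0.25, adjusted p = 0.0638) at day 2, and the day 2 value was called after the GC correction (adjusted p = 0.0485). The day 0 difference was called in 5 of 10 alternative settings that kept all libraries of both groups, and in 0 of 6 fits that left out 1 library. The day 2 difference was called in 6 of 10 and in 1 of 6.

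Egln1, the main hydroxylase, behaved otherwise. Egln1 had 56.7, 73.5 and 89.5 CPM in the FHL2 libraries of day 2, against 127, 180.3 and 171 CPM in the control libraries of day 2. At day 0 Egln1 had 66.6, 67.5 and 67.9 CPM in FHL2, against 65.2, 75.7 and 62.2 CPM in control. Only the control libraries of day 2 stood apart. Egln1 rose in control (1.23, SE 0.16, adjusted p = 1.79e-05) and was lower in FHL2 than in control at day 2 (-1.12, SE 0.16, adjusted p = 0.00463), while its change in FHL2 was 0.12 (SE 0.16, adjusted p = 0.55); after the GC correction Egln1 was called lower at day 2 than at day 0 in FHL2 (adjusted p = 0.0219). The difference of the changes, -1.11 (SE 0.23), was not called (adjusted p = 0.223). The share of Egln3 in the level of both hydroxylases was 37.5 ± 8.37% in FHL2 and 34.6 ± 6.24% in control at day 2, and 9.73 ± 2.25% in FHL2 and 21.4 ± 0.682% in control at day 0.

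Of the other 12 hypoxia targets, 5 rose and 1 fell in FHL2 from day 0 to day 2, where 25.8% of all tested genes rose and 30.2% fell. In control 6 rose and none fell, where 26.3% rose and 30.8% fell. Between lines at day 2, 4 were called lower in FHL2, where 1.35% of all tested genes were. After the GC correction 5 rose and 2 fell in FHL2, 6 rose and 1 fell in control, and 5 were lower at day 2. Car9, a carbonic anhydrase at the cell surface that is a common marker of hypoxia, changed most in control. Car9 had 7.49, 10.8 and 10.4 CPM in the FHL2 libraries of day 2, against 24.3, 49.1 and 24.6 CPM in the control libraries of day 2. At day 0 Car9 had 3.97, 3.71 and 4.98 CPM in FHL2, against 4.43, 5.13 and 3.68 CPM in control. The lines overlapped at day 0 and did not at day 2. Car9 rose 2.27-fold in FHL2 (1.18, SE 0.31, adjusted p = 0.0053; 0.0923 after the GC correction) and 7.39-fold in control (2.88, SE 0.33, adjusted p = 3.98e-06), and was lower in FHL2 at day 2 by the widest margin of any called member (-1.77, SE 0.31, adjusted p = 0.0117). The difference of the changes was -1.70 (SE 0.44, adjusted p = 0.382).

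P4ha1 and P4ha2 encode the catalytic subunits of collagen prolyl 4-hydroxylase. P4ha2 had 194, 219 and 221 CPM in the FHL2 libraries of day 2, against 363, 375 and 399 CPM in the control libraries of day 2. At day 0 P4ha2 had 49.4, 50.9 and 56.7 CPM in FHL2, against 61.5, 69.3 and 61.4 CPM in control. The 4 groups did not overlap, with a rise of 4.04-fold in FHL2 (adjusted p = 1.93e-09) and 5.91-fold in control (adjusted p = 2.14e-10), and a log2 fold change between lines at day 2 of -0.84 (SE 0.09, adjusted p = 0.00077). P4ha1 had 303, 298 and 299 CPM in the FHL2 libraries of day 2, against 379.7, 487 and 366 CPM in the control libraries of day 2. At day 0 P4ha1 had 233, 258 and 237 CPM in FHL2, against 297, 347 and 290.1 CPM in control. The lines stood apart at both days. Its rises in the main fit were 0.31 (SE 0.11, adjusted p = 0.0268) in FHL2 and 0.40 (SE 0.11, adjusted p = 0.00589) in control. Over the alternative fits they ran from 0.27 to 0.99 in FHL2 and from 0.29 to 1.12 in control, so that their size depends on the processing. The FHL2 rise was not called without FHL2 library 1 or 3 of day 0 or library 2 or 3 of day 2 (adjusted p 0.05002 to 0.0965). The difference between lines at day 2, -0.46 (SE 0.11, adjusted p = 0.0463), was not called in 5 of the 6 fits that left out a day 2 library, all but that without control library 3 (0.0781 to 0.133).

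Mif encodes a secreted cytokine that is induced by HIF. Mif had 187, 227 and 221 CPM in the FHL2 libraries of day 2, against 397, 488 and 497 CPM in the control libraries of day 2. At day 0 Mif had 80.5, 78.1 and 74.9 CPM in FHL2, against 108, 117 and 119.6 CPM in control. The 4 groups did not overlap. Mif had the smallest adjusted p of the members between lines at day 2 (-1.12, SE 0.11, adjusted p = 0.000198), and rose by 1.44 (SE 0.11, adjusted p = 9.26e-08) in FHL2 and 2.00 (SE 0.11, adjusted p = 4.72e-09) in control.

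Bnip3, a mitophagy receptor, had 24.8, 32.9 and 33.5 CPM in the FHL2 libraries of day 2, against 63.6, 96.0 and 32.8 CPM in the control libraries of day 2. At day 0 Bnip3 had 28.5, 22 and 27.6 CPM in FHL2, against 36.7, 45.1 and 35.4 CPM in control. Control library 3 of day 2 lay among the FHL2 libraries of that day. Bnip3 rose in control (0.72, SE 0.28, adjusted p = 0.042) and had 0.22 (SE 0.28, adjusted p = 0.529) in FHL2. The control rise was not called when any 1 control library other than library 3 of day 2 was left out (adjusted p 0.0529 to 0.287, the highest without library 2 of day 2). After the GC correction, Bnip3, with a GC content of 41.6%, was called in both lines, with log2 fold changes of 1.61 (adjusted p = 0.000205) in FHL2 and 2.19 (adjusted p = 1.32e-05) in control, and between the lines at day 2 (adjusted p = 0.0383, against 0.0702 without it).

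Vegfa, the main growth factor of blood vessels, did not follow the enzymes. Vegfa had 51.7, 39.2 and 37.0 CPM in the FHL2 libraries of day 2, against 58.6, 71.5 and 47.5 CPM in the control libraries of day 2. At day 0 Vegfa had 53.6, 56.1 and 55.5 CPM in FHL2, against 59.4, 53.4 and 52.7 CPM in control. The control libraries of the 2 days overlapped, and the FHL2 libraries were lower at day 2 than at day 0. Its change was -0.37 (SE 0.16, adjusted p = 0.0666; 0.0143 after the GC correction) in FHL2 and 0.10 (SE 0.16, adjusted p = 0.612) in control. Adm, the vasodilator peptide adrenomedullin, had 4.30, 1.91 and 3.75 CPM in the FHL2 libraries of day 2, against 4.29, 7.28 and 1.84 CPM in the control libraries of day 2. At day 0 Adm had 14.7, 11.8 and 10.0 CPM in FHL2, against 8.55, 9.01 and 11.1 CPM in control. Adm fell in FHL2 (log2 fold change -1.87, SE 0.455, adjusted p = 0.00297) and had -1.08 (SE 0.45, adjusted p = 0.0516) in control, a value that was called after the GC correction (adjusted p = 0.0336).

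Higd1a, a small protein of the mitochondrial inner membrane, rose in both lines, by 1.21 (SE 0.23, adjusted p = 0.000441) in FHL2 and 1.92 (SE 0.23, adjusted p = 7.68e-06) in control. Ankrd37, Ndrg1, Ak4 and Mxi1 were called in no comparison. They averaged 6.41 ± 1.44, 32.0 ± 3.52, 10.3 ± 2.72 and 15.9 ± 4.71 CPM in FHL2 at day 2, against 9.04 ± 4.59, 35.9 ± 12.4, 17.2 ± 4.61 and 23.4 ± 13.7 CPM in control at day 2 (SD, n = 3 each). The largest fold changes between days among these 4 were those of Ankrd37, with 0.98 (SE 0.43, adjusted p = 0.0688) in FHL2 and 0.84 (SE 0.43, adjusted p = 0.108) in control. Ankrd37, with 1144 counts in all, shares 57 bases with the opposite-strand gene Ufsp2, which had 17027 counts. In all, 17 members share exon with another gene, and for 5 (Pfkm, Pfkp, Gapdh, Gys1, Ankrd37) the opposite-strand partner had at least 10% of the member's counts, so that their counts are uncertain where strand was not used.

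Pathway genes outside the 37 were described from lists chosen by pathway. Of 17 tested genes among other glycolysis and lactate genes, 2 were called lower in FHL2 at day 2 and none higher. Both belong to lactate transport, and were Slc16a1, the carrier MCT1 (-0.75, adjusted p = 0.0198), and Bsg, the chaperone of these carriers (-0.39, adjusted p = 0.0288). Between days, 6 of the 17 rose and 4 fell in FHL2, where 25.8% of all tested genes rose and 30.2% fell, and 7 rose and 4 fell in control, where 26.3% rose and 30.8% fell. With the GC correction 6 rose and 2 fell in FHL2 and 8 rose and 2 fell in control, where 39.9% and 40% of all tested genes were called in either direction. These shares also apply to the lists that follow, as do the 1.35% called lower and 0.72% called higher between lines at day 2. The median log2 fold change of this list between lines at day 2 was 0.10, against -0.63 for the 36 tested members.

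Of 12 tested genes of glycogen metabolism, Pgm1, phosphoglucomutase, was called lower in FHL2 at day 2 (-0.39, adjusted p = 0.041) and none was called higher, and 4 rose and 7 fell in FHL2 and 3 rose and 5 fell in control between days. With the correction for GC content 4 rose and 3 fell in each line. Of 7 pentose phosphate genes none was called between lines at day 2. An unadjusted edgeR p under 0.05 was found for 3 of the 7, and for 2611 of all 14435 tested genes. Between days 5 of the 7 rose and 1 fell in each line, or 4 and 0 in FHL2 and 6 and 1 in control after the GC correction. Pgd, the second dehydrogenase of that pathway, rose by 1.75 (adjusted p = 1.97e-09) in FHL2 and 1.84 (adjusted p = 1.03e-09) in control.

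Components of the HIF pathway showed no called difference between lines at day 2 among 14 tested. An unadjusted edgeR p under 0.05 was found for 1 of the 14, and for 2611 of all 14435 tested genes. Between days 8 rose and 4 fell in FHL2, and 8 rose and 2 fell in control, or 7 and 3 in FHL2 and 7 and 2 in control after the GC correction. Vhl, which recognises hydroxylated HIF for degradation, rose by 1.35 (adjusted p = 2.41e-07) in FHL2 and 1.43 (adjusted p = 1.46e-07) in control, and Epas1, the second oxygen-labile HIF subunit, rose by 1.39 in each line (adjusted p = 0.008 in FHL2 and 0.00818 in control; 0.0468 and 0.0523 after the GC correction). Of 33 other HIF targets, 5 were called lower in FHL2 at day 2 and none higher, with the largest differences in Bhlhe40, a transcriptional repressor (-0.79, adjusted p = 0.0358), Ero1a, an oxidase of the endoplasmic reticulum (-0.76, adjusted p = 0.0138), and Fam162a (-0.74, adjusted p = 0.0467). Between days 9 of the 33 rose and 9 fell in FHL2, and 13 rose and 6 fell in control (shares of all tested genes as above). With the correction 12 rose and 5 fell in FHL2 (median 0.34), and 16 rose and 3 fell in control (median 0.65). The largest rise was that of Angptl4, an inhibitor of lipoprotein lipase, with 2.31 (adjusted p = 2.44e-10) in FHL2 and 2.45 (adjusted p = 1.28e-10) in control, and Angptl4 was also among the 5 lower in FHL2 at day 2 (-0.53, adjusted p = 0.00653). Of 9 tested genes of the MYC, MAX and MXD network none was called between lines at day 2 (3 had an unadjusted edgeR p under 0.05), and between days 3 rose and 1 fell in FHL2, and 2 rose and 1 fell in control, or 3 and 3 in FHL2 and 1 and 2 in control after the GC correction. Myc itself averaged 45.0 CPM in FHL2 and 58.1 CPM in control at day 2, and 42.4 CPM in FHL2 and 41.8 CPM in control at day 0, and was not called between days in FHL2 (0.09, adjusted p = 0.749) or control (0.48, adjusted p = 0.0739).

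Among tested genes outside the list with a mean of at least 5 CPM, the 5 whose 4 group means were most like the median profile of the members were Nxt1, Pcbp1, Trib2, Pparg and Vps51. Their Pearson correlation with that profile was at least 0.9998 across the 4 group means, and 0.869 to 0.947 across the 12 libraries, as a description of points that share libraries and groups. Pparg, the master regulator of fat cell formation and one of the adipocyte markers above, averaged 17.7 CPM in FHL2 and 27.1 CPM in control at day 2, and 8.71 CPM in FHL2 and 10.4 CPM in control at day 0.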

How the data were processed

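Stranded polyA libraries were sequenced, per the labels. The authors deposited 1 table of raw read counts, with a row for each Ensembl gene and a column for each of 12 libraries. Per the submitters' processing notes, the build was GRCm39, and the tools named, without their roles, were HTSeq 0.11.0, limma, Trimmomatic 0.39, R 4.1.0, HISAT2 2.2.1 and FastQC 0.11.9. The sources used here do not give the annotation release or the strand setting. Groups came from the labels. Genes were kept by filterByExpr, scaled by TMM and tested in 1 edgeR 4.0.16 quasi-likelihood fit (R 4.3.3) to all 12 libraries, 2-sided, Benjamini-Hochberg adjusted over 14435 genes, called at an adjusted p under 0.05; the script was tested on simulated data. The alternatives comprised scaling by RLE or upper quartile, fits with no filter or with 1 CPM in 3 libraries, DESeq2 1.42.0, limma-voom (limma 3.58.1), only the groups compared, a replicate block, a GC correction (a spline of each library's counts on the GC content of the longest GENCODE M21 transcript, which held 99.8% of tested genes), a fit without the 3 day 2 libraries with the fewest detected genes, and leaving out each library. The fit without 3 libraries dropped FHL2 libraries 1 and 2 and control library 3 of day 2, and kept 1 FHL2 library of day 2. CPM are TMM-scaled. CPM per kb divide by the joined length of all exons of a gene in the same annotation. Counting precision follows depth, 10047708 to 21872139 counts per library. Aldoa is identifier ENSMUSG00000030695; a second, with 117 counts, was left out.

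The members and lists were chosen with earlier results of these data known. Values in every library are printed for Slc2a1, Hk2, Ldha, Pgk1, Gapdh, Pdk1, Pfkfb3, Hif1a, Egln3, Bnip3, Vegfa and Car9, for members called between the lines, and for the largest called change of each role between days; Adm, Slc16a3 and Tpi1 complete their roles. Of other lists, called genes over 5 CPM are named by size, up to 3; Vhl, Epas1, Pgd and Myc were chosen for their role after their values were seen. An identity of isozyme proteins was planned and not run.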

Additional observations from a re-analysis of the deposited data

How the results depend on the processing

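Over all 36 tested members, RLE scaling, upper-quartile scaling and 1 CPM in 3 libraries left the counts of called members within 1.5 times of those reported. The fit without the 3 day 2 libraries with the fewest detected genes kept 1 FHL2 library of day 2. Its counts, here and below, are therefore no check by replicates. Between lines at day 0, where none was called, 5 were called with no filter, 5 by DESeq2, 6 in a fit of only the groups compared, 1 after the GC correction and 5 on leaving out together the 3 libraries of day 2 in which the fewest genes were detected, all lower in FHL2. Between lines at day 2, where 19 were called, only the groups compared gave 10, and leaving out 1 library gave 13 to 22. For the interaction, with none called, no filter gave 3, DESeq2 3 and the fit without those 3 libraries 2. Leaving out 1 library gave 22 to 24 between days in FHL2, 23 to 29 in control, and 0 at day 0 and in the interaction. Hif1a turned to 0.0096 in FHL2 and 0.20 in control after the GC correction. Whether equal replicate numbers mark paired cultures is not given, and the correlations do not settle it. Of 18 same-numbered pairs, 5 had a correlation over 0.1 (range -0.138 to 0.260), and 7 of 12 libraries correlated best with their own number. With the replicate block 2 members were called at day 0 and 3 with the block and the GC correction, and Hif1a in control was 0.19 with both.

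For the lists between lines at day 2, other glycolysis genes (2 called) gave 0 in only the groups compared, 1 with the block and GC correction and 1 without the 3 libraries (0 to 2 leaving out 1). Glycogen genes (1) gave 2 with no filter, 5 by DESeq2, 0 in only the groups compared, 0 with the replicate block, 0 with the block and GC correction and 5 without the 3 libraries (0 to 3 leaving out 1). HIF components (0) gave 1 with no filter and 2 without the 3 libraries (0 to 1). Other HIF targets (5) gave 9 by DESeq2, 0 in only the groups compared and 9 without the 3 libraries (2 to 5). The MYC network (0) gave 1 without the 3 libraries (0 to 0), and between days in control (3) 6 with upper-quartile scaling, 5 with 1 CPM in 3 libraries, 6 in only the groups compared and 5 without the 3 libraries (3 to 5). Glycogen genes between days in FHL2 (11) gave 7 after the GC correction, with and without the replicate block. In the 100 bases nearest the start, 21 of 36 members (58.3%) held ACGTG or GCGTG, against 32 in the full window, and 37.2% of tested genes held either there. In those 100 bases ACGTG lay in 41.7% of members and 12.9% of tested genes, and CACGTG in 2.78% and 5.16%.

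Over all genes, 7 were called between lines at day 0, against 69 with no filter, 88 by DESeq2, 18 by limma-voom, 246 in only the groups compared, 11 with the replicate block, 13 after the GC correction, 135 without the 3 libraries and 1 to 5 leaving out 1. At day 2, 299 were called, against 846 with no filter, 997 by DESeq2, 39 in only the groups compared, 1606 without the 3 libraries, 146 without FHL2 library 2 and 197 without control library 1. Between days in control 8246 were called, against 5469 with the block and GC correction. The interaction had 1, against 2 with upper-quartile scaling, 91 with no filter, 66 by DESeq2, 2 after the GC correction, 243 without the 3 libraries and 0 to 6 leaving out 1. The causes were not tested.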
